A study of Mus musculus with 7 samples.

Results

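The genes described here are 10 that encode calcium/calmodulin-dependent protein kinases (CaM kinases) and their regulators, out of 17732 genes listed in the authors' deposited table. They were taken by symbol, and each of the 10 symbols matched a single line. They form 3 classes, the 4 subunits of CaMKII (Camk2a, Camk2b, Camk2d and Camk2g), the 2 endogenous CaMKII inhibitors (Camk2n1 and Camk2n2), and 4 genes of the CaMKI/IV cascade (Camkk1, Camkk2, Camk4 and Camk1d). The family was chosen by its fold changes and p-values in this same comparison as well as by function, so these values are given as a description and no test of them is offered.

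Bulk polyadenylated RNA was sequenced from the medial prefrontal cortex, taken after remote memory retrieval from male mice of the inbred strain 129SvEv with a wild-type (WT) genotype. Of the 7 libraries, 3 belonged to the group labelled CFC and 4 to the group labelled SC; the labels do not spell these names out, and give neither the age of the mice nor whether tissue was pooled. Both groups shared strain, sex and genotype. The deposited table gives a mean normalized count over all libraries, a log2 fold change, its standard error (SE) and p-values for each gene, so no value of a single library is shown. Neither the labels nor the table header name the numerator of the fold change, and each difference is therefore given with its deposited sign, without saying which group was higher. Nothing in the labels says whether the libraries came from separate animals, so the p-values measure the spread between these samples only.

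CaM kinases read calcium signals. Calcium entering a neuron binds calmodulin, which relieves the autoinhibition of the kinases. CaMKII is a multi-subunit holoenzyme that can phosphorylate itself and then stay active after calcium has fallen, and it is among the most abundant proteins of the postsynaptic density of excitatory forebrain neurons. The small proteins encoded by Camk2n1 and Camk2n2 bind the active kinase and block it. In the parallel cascade, the CaM kinase kinases encoded by Camkk1 and Camkk2 phosphorylate CaMKI and CaMKIV in their activation loop. CaMKIV is largely nuclear and phosphorylates the transcription factor CREB, whereas CaMKI isoforms such as that of Camk1d act mainly in the cytoplasm.

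The 2 inhibitor genes had similar fold changes, and their coding sequences are shown to compare the pair. The coding part is 237 of 4444 transcript bases in Camk2n1 and 240 of 1291 in Camk2n2. How far reads of the pair can be told apart therefore rests on the whole transcripts, compared below. Both sequences shown are spliced coding sequences from GENCODE M21 on GRCm38, start to stop codon, 5′ to 3′ on the strand of the gene. Camk2n1 lies on the plus strand at chr4:138455186-138456788 and Camk2n2 on the minus strand at chr16:20620173-20621194. Capitals mark runs of at least 11 bases that are identical in a global alignment of the pair.
Camk2n1: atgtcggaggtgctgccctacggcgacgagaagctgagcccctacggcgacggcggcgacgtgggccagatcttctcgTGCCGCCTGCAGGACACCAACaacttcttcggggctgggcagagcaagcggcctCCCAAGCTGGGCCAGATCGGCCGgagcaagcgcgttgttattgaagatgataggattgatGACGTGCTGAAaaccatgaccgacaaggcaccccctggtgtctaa
Camk2n2: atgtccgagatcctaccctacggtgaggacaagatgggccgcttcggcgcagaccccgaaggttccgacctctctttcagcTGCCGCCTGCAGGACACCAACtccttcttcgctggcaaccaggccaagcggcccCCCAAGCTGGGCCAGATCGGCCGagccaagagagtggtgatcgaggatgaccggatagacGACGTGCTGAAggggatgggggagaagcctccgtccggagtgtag

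The coding sequences had 237 bases in Camk2n1 and 240 in Camk2n2. They were identical at 169 of 237 aligned bases (71.3%), and their longest identical run was 23 bases. Among the 4 CaMKII subunits, the longest complete coding sequences were identical at 76.8% of aligned bases (Camk2a with Camk2d) to 79.8% (Camk2a with Camk2b), and Camkk1 and Camkk2 at 71.3%. No stretch of 50 bases in any annotated transcript of a member occurred in a transcript of another member. Against all other annotated genes, such shared stretches made up 0.293% of those of Camk2a, 0.159% of Camk2b and 0.710% of Camk4, and there were none for the other 7 members. Those of Camk4 were shared with 2310026I22Rik, whose exons overlap it on the opposite strand, and the strand setting of the counting is not given in the sources used here. No other member had an exon overlapping that of another gene in GENCODE M21.

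All 10 members had an adjusted p-value, so none was lost to the authors' filter on low mean counts. Their mean normalized counts in the authors' deposited table ran from 1241 for Camk2n2 to 106077 for Camk2a, and Camk2a ranked 2 among all symbols by this measure. Counts of different genes compare only per length, so the mean count was divided by the length of the longest coding transcript in GENCODE M21. On this scale of mean normalized count per kilobase, Camk2a stood at 21343 and Camk2n1, the inhibitor, followed at 8132. Camk2b reached 4899, Camk2g 1579 and Camk2d 533 counts per kilobase. Of the summed level of the 4 subunits per kilobase, Camk2a thus made up 75.3%, Camk2b 17.3%, Camk2g 5.57% and Camk2d 1.88%.

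The other inhibitor and the cascade genes lay between Camk2b and Camk2d on this scale. Camk2n2 had 961 counts per kilobase, and Camk2n1 was 8.46-fold above it. Camkk2 had 1440 counts per kilobase, followed by Camk4 at 690, Camkk1 at 685 and Camk1d at 636. These values carry no error between libraries and depend on the length used. The share of Camk2a among the subunits was 81.2% with the median coding transcript and 81.6% with all annotated exons merged, but the ratio of Camk2a to Camk2n1 went from 2.62 to 9.62 and 1.75. The ratio of Camkk2 to Camkk1 was 2.10, 6.13 and 1.02 under the same 3 lengths. Camk4, Camkk1 and Camk1d changed places among themselves, so their order is not resolved. With the median coding transcript Camk2b, at 10244, stood above Camk2n1, at 8132. With merged exons Camk2n2, at 961, stood above Camk2g, at 913, and Camkk2, at 641. Camk2a stayed highest and Camk2d lowest under each length, while the order between them depended on the length used.

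**Figure D1:**
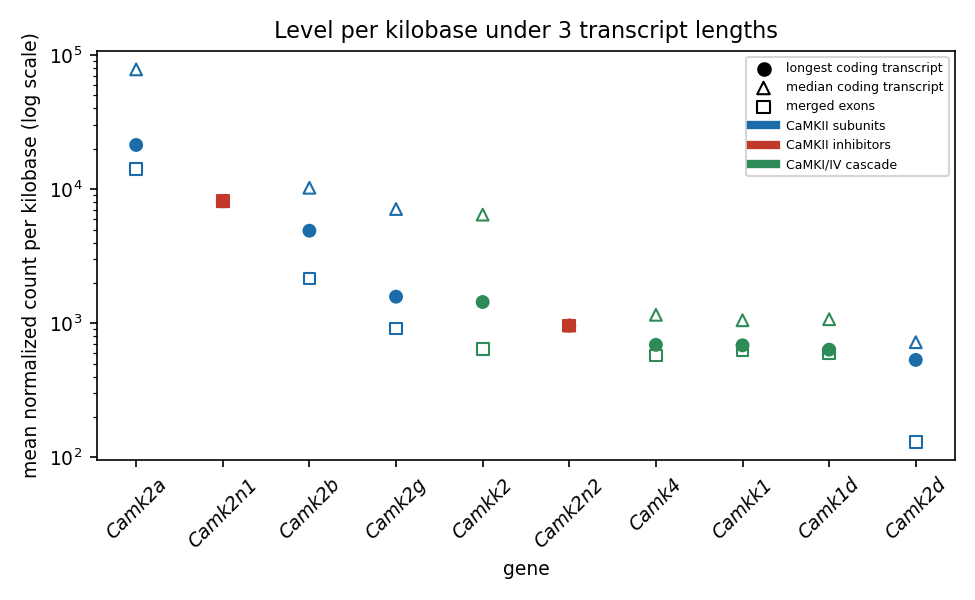
Mean normalized count per kilobase (log axis) of each member, with the length taken as the longest coding transcript (filled circles), the median coding transcript (triangles) or merged exons (squares), coloured by class. Camk2a is highest under each length, at 21343 with the longest coding transcript, and Camk2d lowest, at 533; the inhibitors have a single annotated transcript, so their symbols coincide.

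Between the groups, Camk2a was the subunit with the lowest fold change. Camk2a (ENSMUSG00000024617), the alpha subunit of excitatory forebrain neurons, whose mRNA is known to be carried into dendrites, had a log2 fold change of -0.29 with an SE of 0.06 in the authors' deposited table. Its adjusted p-value there was 0.00151. The fold change corresponds to a difference of -18.2%, with a 95% confidence interval from -24.6% to -11.1%. The beta subunit Camk2b (ENSMUSG00000057897), which also binds actin, had a log2 fold change of -0.02 with an SE of 0.05 in the authors' deposited table (adjusted p-value 0.999). Its interval ran from -7.89% to 5.49%. The log2 fold change of Camk2a was lower than that of Camk2b by the difference -0.27, for which no error could be computed without values per library.

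The delta and gamma subunits, which are also widely expressed outside the brain, lay between these values. Camk2d (ENSMUSG00000053819) had a log2 fold change of -0.06 with an SE of 0.07, and Camk2g (ENSMUSG00000021820) one of -0.08 with an SE of 0.08, in the authors' deposited table. After adjustment the p-values were 0.984 and 0.971. The intervals ran from -12.6% to 5.12% for Camk2d and from -15.5% to 5.25% for Camk2g, and both overlapped that of Camk2a. All 4 subunits had a negative sign, with a median of -0.07 on the log2 scale, and 1 of the 4 had an adjusted p-value under 0.05, as did 0.513% of all genes with such a value.

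Both inhibitor genes had negative values as large as that of Camk2a. Camk2n1 (ENSMUSG00000046447) had a log2 fold change of -0.35 with an SE of 0.08 and adjusted p = 0.00464 in the authors' deposited table. This is a difference of -21.7%, with a 95% confidence interval from -29.7% to -12.8%. For Camk2n2 (ENSMUSG00000051146) the authors' deposited table gave a log2 fold change of -0.30, an SE of 0.09 and an adjusted p-value of 0.0926, above the threshold of 0.05 used here. Its difference was -18.5%, with an interval from -27.5% to -8.36%, which overlapped those of Camk2n1 and Camk2a. The median log2 fold change of the inhibitors was -0.32. A kinase subunit and the inhibitors of the same kinase therefore carried the same sign, and the log2 fold change of Camk2a exceeded that of Camk2n1 by 0.06, about the size of 1 SE.

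In the CaMKI/IV cascade the upstream kinases Camkk2 and Camkk1 had more negative values than Camk4 and Camk1d, but the intervals of all 4 overlapped. The CaMKI gene Camk1, which is not a member, stood at -0.11 with an SE of 0.09, as low as Camkk1. Camkk2 (ENSMUSG00000029471), which also phosphorylates the energy sensor AMPK, had a log2 fold change of -0.21 with an SE of 0.09 in the authors' deposited table. Its unadjusted p-value was 0.0157 and its adjusted p-value 0.430 in the authors' deposited table, and the interval of the difference ran from -22.8% to -2.66%. Camkk1 (ENSMUSG00000020785) had a log2 fold change of -0.11 with an SE of 0.09 and adjusted p = 0.941 in the authors' deposited table. Of the 4 members, the downstream kinases Camk4 and Camk1d were nearest to 0. The authors' deposited table listed Camk4 (ENSMUSG00000038128) at a log2 fold change of 0.0081, SE 0.10, and Camk1d (ENSMUSG00000039145) at -0.05, SE 0.06, with adjusted p-values of 0.999 and 0.994. Camk4 was the only member with a positive sign, and its interval, from -12.0% to 14.9%, reached farthest above 0 of the 10. The median log2 fold change of the 4 cascade genes was -0.08, close to the -0.07 of the subunits and nearer to 0 than the -0.32 of the inhibitors, and none of the 4 had an adjusted p-value under 0.05.

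**Figure D2:**
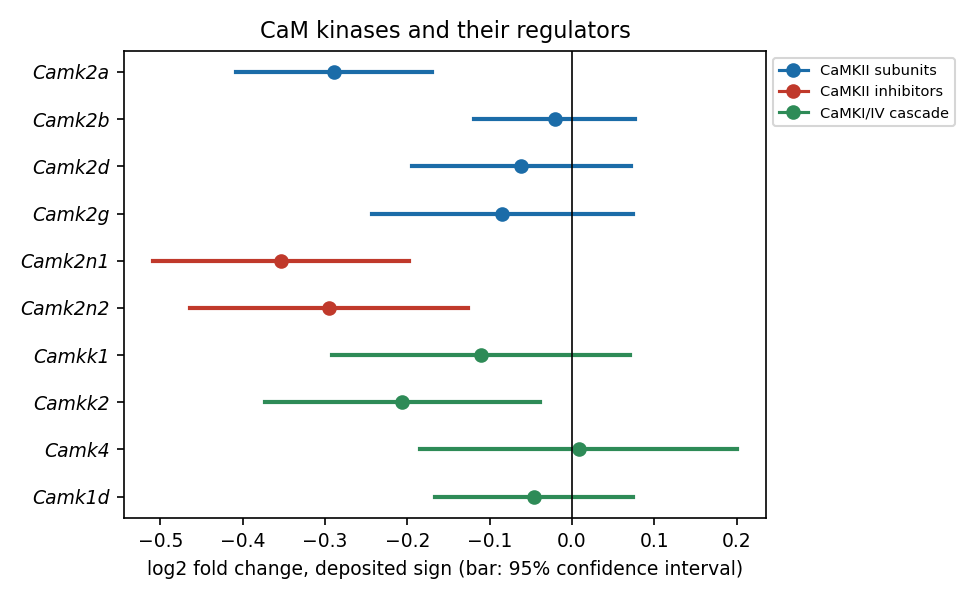
Log2 fold change of each member with its deposited sign (points) and 95% confidence interval computed from the deposited SE (bars), coloured by class. The bars of Camk2a, Camk2n1, Camk2n2 and Camkk2 lie wholly below 0, and those of the other 6 members cross it.

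Counted over the family, 2 of 10 members had an adjusted p-value under 0.05, both negative, and 4 of 10 had an unadjusted p-value under 0.05, all negative, in the authors' deposited table. Of the 13060 genes that have an adjusted p-value, 0.513% passed the adjusted threshold with either sign, 0.145% with a negative and 0.368% with a positive one. For the unadjusted p-value these shares were 8.1% with either sign, 3.54% negative and 4.56% positive. Negative signs were found in 9 of 10 members and in 50.6% of all these genes. Because the members are abundant, those with mean counts from 1000 upwards are the closer background. Of these 4242 genes, 0.636% passed the adjusted threshold, 0.259% with a negative sign, 10.6% had an unadjusted p-value under 0.05, 5.4% with a negative sign, and 48.5% were negative. Over the members, the log2 fold changes had a median of -0.10, compared with -0.0017 over all 13060 genes and 0.0026 over those from a mean count of 1000 upwards. Since the members were proposed with this comparison known, nothing is read from these shares. With a Bonferroni adjustment of the same p-values Camk2a alone of the members passed, and none did against a null of a 1.2-fold change. These outcomes rest on the values by which the members were chosen, so nothing is read from them either.

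The SEs of 9 of the 10 members were above the median SE of the genes ranked nearest to each by mean count. Up to 300 such genes were used. For Camk2a, Camk2b and Camk2n1, near the top of that ranking, fewer were available and most of them were less abundant than the member. Each SE divided by that median ran from 0.906 for Camk2b to 1.48 for Camk4, with 1.10 for Camk2a and 1.44 for Camk2n1. Of the 67 genes that passed the adjusted threshold, Camk2a and Camk2n1 were the 2 with a mean count above 30000. Their p-values ranked 3 and 5 among the 19 negative genes of that set. Of the 15 genes with a mean count at least that of Camk2n1, these were the 2 that passed the threshold.

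**Figure D3:**
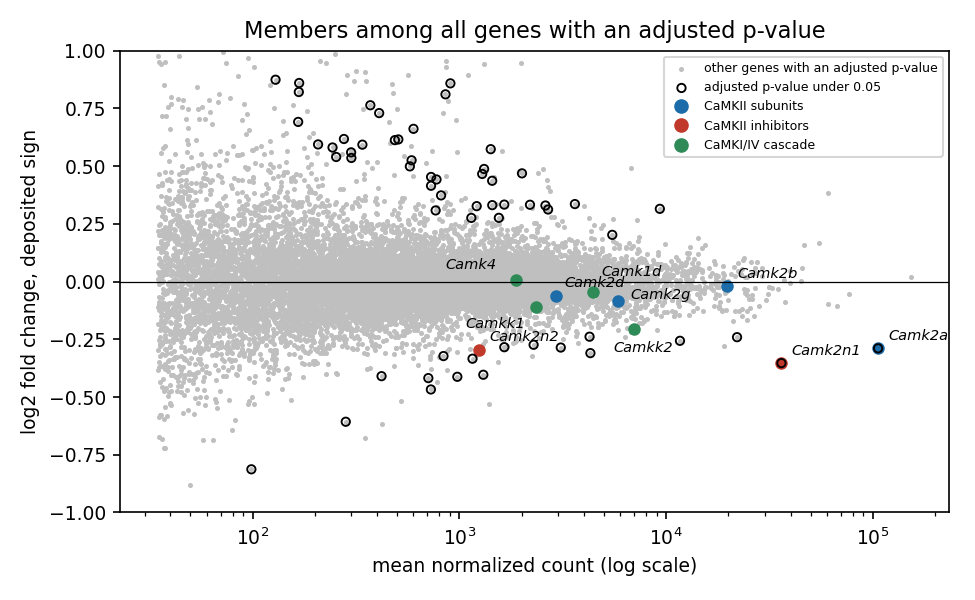
Log2 fold change with its deposited sign against mean normalized count (log axis) for the genes with an adjusted p-value, leaving out those beyond a log2 fold change of 1 in either direction; circles mark an adjusted p-value under 0.05 and coloured points the members. Camk2a and Camk2n1 lie at the right edge, at mean counts of 106077 and 36139, below the band of genes of similar abundance.

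Values of markers of other cell types and of cortical layers are given beside those of the members. For the 5 markers of excitatory neurons, the cells that express Camk2a most, the median log2 fold change was 0.0011, none with an unadjusted p-value under 0.05. The vesicular glutamate transporter Slc17a7 had a log2 fold change of -0.03 with an SE of 0.05 in the authors' deposited table. All 6 upper-layer markers were negative, with a median of -0.24, and 1 of them (Otof) had an adjusted p-value under 0.05. All 8 deep-layer markers were positive, with a median of 0.55, and 6 of them (Ccn2, Foxp2, Nxph4, Sulf1, Hs3st4 and Tle4) passed that threshold. The 8 markers of oligodendrocytes, from 0.95 to 1.67, and the 8 of striatal medium spiny neurons, with a median of 0.68, were positive throughout. Of these, Drd1 passed the adjusted threshold and no oligodendrocyte marker did. The SEs of the oligodendrocyte markers were 4.43 to 9.06 times the median SE at similar mean counts. Those of inhibitory neurons had a median of 0.0032 over 6 genes, from -0.23 for Pvalb to 0.09 for Gad2. Those of astrocytes had one of -0.0081 over 5, from -0.15 for Aldh1l1 to 0.56 for Gfap. The SEs of Pvalb and Gfap were 2.52 and 5.64 times the median SE at similar mean counts. All 5 microglial and all 4 endothelial markers were negative, with medians of -0.13 and -0.16, and no marker of these last 4 cell types or of excitatory neurons passed the adjusted threshold. No defining marker of these lists was at 0, with the lowest mean count at 53.4. Their part in the values of the members was not tested. In bulk tissue, fewer cells of a type and less RNA per cell cannot be told apart.

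The activator shared by all the kinases is calmodulin. The authors' deposited table gave log2 fold changes of -0.08 for the calmodulin gene Calm2 and -0.12 for Calm3, each with an SE of 0.06. After adjustment the p-values were 0.875 and 0.584. Nrgn (ENSMUSG00000053310), which encodes neurogranin, a postsynaptic protein that holds calmodulin at low calcium and whose mRNA is also known from dendrites, had the smallest p-value of the calmodulin list. In the authors' deposited table it stood at a log2 fold change of -0.28 with an SE of 0.08 and adjusted p = 0.0756. The difference of -17.6%, with an interval from -26.0% to -8.19%, lay close to those of Camk2a and Camk2n2. Gap43, a presynaptic calmodulin-binding protein of growing axons, was positive, at 0.08 with an SE of 0.09 in the authors' deposited table. Of the 8 genes reported from the calmodulin list, 5 were negative and 3 positive, with a median log2 fold change of -0.04. Nrgn, Calm3 and Camta2, all negative, had an unadjusted p-value under 0.05, and none of the 8 had an adjusted one.

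Other kinases of the family had values on both sides of 0. Of 13 listed genes, 12 had an adjusted p-value, 7 of them negative and 5 positive, with a median log2 fold change of -0.04. Dapk2 was left out at a mean count of 16.3. The gene with the smallest p-value was Mylk, the myosin light chain kinase of smooth muscle, which was positive at 0.33 with an SE of 0.14 and adjusted p = 0.435 in the authors' deposited table. Dclk1, a doublecortin-like kinase of neurons and the most abundant of the list by mean count, had a log2 fold change of 0.03 with an SE of 0.05 in the authors' deposited table. The closest relatives of the cascade kinase Camk1d, Camk1 and Camk1g, had values of -0.11 and -0.04 with SEs of 0.09 and 0.09 in the authors' deposited table. Camkv, a pseudokinase of the postsynaptic density, stood at -0.06 with an SE of 0.07 in the authors' deposited table.

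Phosphatases that oppose the kinases, listed together with regulators of those phosphatases, had values on both sides of 0. Of 15 genes, 11 were negative and 4 positive, with a median of -0.03 on the log2 scale, and none had an adjusted p-value under 0.05. The calcineurin catalytic subunit Ppp3ca had a log2 fold change of -0.05 with an SE of 0.07 in the authors' deposited table. Ppm1e and Ppm1f, which encode phosphatases that dephosphorylate CaM kinases, had values of 0.11 and -0.03, each with an SE of 0.07, in the authors' deposited table. Ppp1r9b, which encodes spinophilin, the anchor of protein phosphatase 1 in dendritic spines, was negative at -0.13 with an SE of 0.05 and adjusted p = 0.286 in the authors' deposited table. The smallest p-value of this list was that of Ppp1r1b, the DARPP-32 gene of dopamine-responsive neurons, at 0.70 with an SE of 0.23 and adjusted p = 0.189 in the authors' deposited table. Its SE was 3.03 times the median SE at similar mean counts, and the gene is also abundant in the medium spiny neurons whose markers are given above.

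Synaptic partners and substrates of CaMKII did not share a sign. Of 15 genes, 9 were negative and 6 positive, with a median log2 fold change of -0.03. The unadjusted p-value was under 0.05 for 2 negative and 3 positive genes, and the adjusted one for none. Shank3, a postsynaptic scaffold protein whose value was the list's smallest p-value, had a log2 fold change of -0.19 with an SE of 0.06 and adjusted p = 0.157 in the authors' deposited table. Dlg4, which encodes the scaffold PSD-95, had -0.11 with an SE of 0.05 and adjusted p = 0.442 in the authors' deposited table. The positive genes included the NMDA receptor subunit Grin2b, the principal docking site of active CaMKII at the synapse, at 0.16, and the scaffold Lrrc7 (densin), which also binds CaMKII, at 0.13, with SEs of 0.07 and 0.06 in the authors' deposited table. Rem2, a small GTPase, was the third, at 0.53 with an SE of 0.22 in the authors' deposited table. After adjustment the p-values of Grin2b, Lrrc7 and Rem2 were 0.474, 0.578 and 0.441. The AMPA receptor subunit Gria1, a substrate of CaMKII, had a value of 0.11 with an SE of 0.08 in the authors' deposited table.

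Nuclear targets of the cascade had a median near 0. Of 14 genes, 6 were negative and 8 positive, with a median of 0.02 on the log2 scale and none with an adjusted p-value under 0.05. Creb1, which encodes CREB, had a log2 fold change of 0.03 with an SE of 0.08 in the authors' deposited table. Crtc1, a coactivator of CREB that moves from synapse to nucleus, had the smallest p-value, with a log2 fold change of -0.19, an SE of 0.06 and adjusted p = 0.137 in the authors' deposited table. Crebbp, the acetyltransferase that binds phosphorylated CREB, had the opposite sign, at 0.15 with an SE of 0.07 and adjusted p = 0.513 in the authors' deposited table. Mef2c, a transcription factor of excitatory neurons and the most abundant of the list by mean count, stood at 0.02 with an SE of 0.08 in the authors' deposited table. The AMPK subunits, targets of CaMKK2, included 3 negative and 3 positive genes, with a median of 0.0015 on the log2 scale and no unadjusted p-value under 0.05. Their catalytic subunits Prkaa1 and Prkaa2 had values of 0.11 and 0.04, with SEs of 0.09 and 0.08, in the authors' deposited table.

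**Figure D4:**
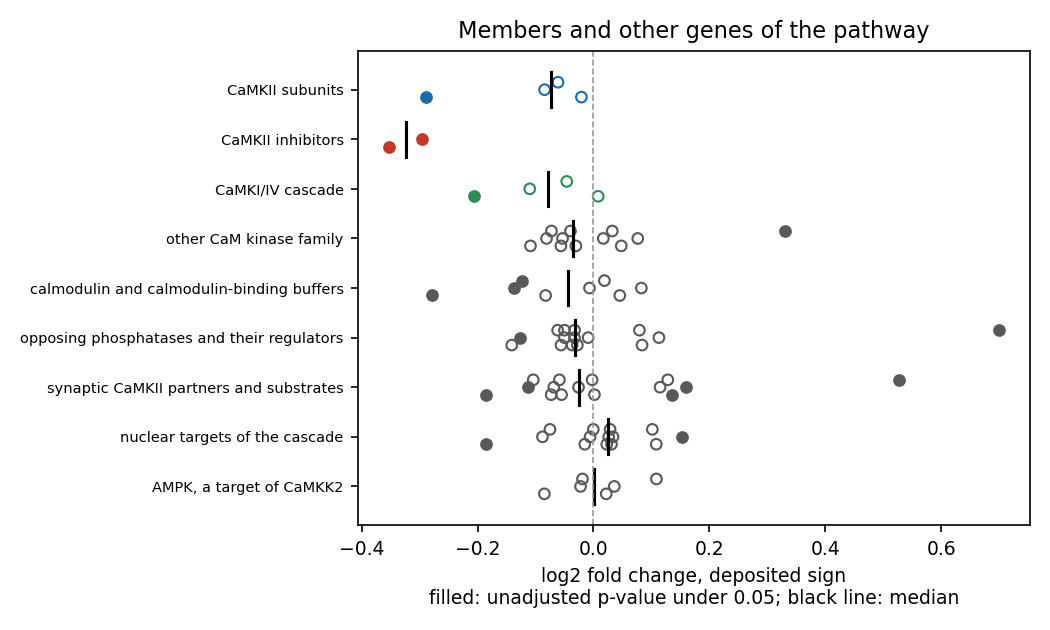
Log2 fold change with its deposited sign of each gene with an adjusted p-value, for the 3 classes of members (coloured) and 6 lists of other genes of the pathway (grey); filled points have an unadjusted p-value under 0.05 and black lines are medians. The medians of the 6 lists lie between -0.04 and 0.02, and that of the inhibitors at -0.32.

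Over these 6 lists together, 70 genes had an adjusted p-value, 41 of them negative and 29 positive, with a median log2 fold change of -0.02. None had an adjusted p-value under 0.05, and 13 had an unadjusted one, 7 negative and 6 positive. The share beside this count and those of the single lists is 8.1% over all genes. It is 10.6% over those from a mean count of 1000 upwards. The lists were chosen with earlier results of these data known, so nothing is read from these counts. Among the pathway genes and members together, the 4 lowest values were those of Camk2n1, Camk2n2, Camk2a and Nrgn, a ranking made after the values were seen.

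Promoter sequences from RefSeq on GRCm38.p6, from 250 bases before to 50 after a start site, were matched for 6 members, with 7 promoters. No promoter of Camk2a, Camk2g, Camk2n1 or Camk4 was examined. Of the promoters matched, those of Camk2n2 and Camkk2 are printed because both members had a negative value with an unadjusted p-value under 0.05. Camk2a and Camk2n1, the members with an adjusted p-value under 0.05, are thus missing from this description. The printed promoters run 5′ to 3′ on the minus strand, Camk2n2 at chr16:20621229-20621528 and Camkk2 at chr5:122779361-122779660. Capitals mark the GC box GGGCGG and the half-site TGACG of the cAMP response element bound by CREB, each on either strand.
Camk2n2: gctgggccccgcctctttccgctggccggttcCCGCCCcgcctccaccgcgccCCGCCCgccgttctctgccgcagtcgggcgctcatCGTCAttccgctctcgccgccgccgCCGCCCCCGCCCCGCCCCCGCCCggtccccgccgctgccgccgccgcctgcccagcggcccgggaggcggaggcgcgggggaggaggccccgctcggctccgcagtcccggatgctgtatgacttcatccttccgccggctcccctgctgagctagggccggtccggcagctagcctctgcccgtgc
Camkk2: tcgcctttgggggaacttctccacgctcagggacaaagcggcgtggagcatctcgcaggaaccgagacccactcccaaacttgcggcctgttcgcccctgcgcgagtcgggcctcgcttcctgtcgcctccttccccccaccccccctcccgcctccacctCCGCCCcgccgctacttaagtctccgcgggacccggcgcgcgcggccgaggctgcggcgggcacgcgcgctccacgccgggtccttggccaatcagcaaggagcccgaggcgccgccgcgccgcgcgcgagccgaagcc

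The Camk2n2 promoter held 6 matches to GGGCGG and 1 to TGACG, and that of Camkk2 held 1 match to GGGCGG and 0 to TGACG. At least 1 match to GGGCGG was present in 35.7% of 32851 promoters of the same length, and to TGACG in 20.8%. All 7 promoters of members held GGGCGG, and those of Camk2n2 and Camkk1 held TGACG. The full element TGACGTCA, present in 1.79% of all promoters and overlapping TGACG where it occurs, and the TATA motif TATAAA, present in 13.6%, were found in none of the 7. Their GC content was between 48.7% and 79%, with 79% in Camk2n2 and 73.3% in Camkk2, against a median of 52.7% over all promoters. Motif matches are a description of the letters in these windows, and Camk2b, Camk2d and Camk1d, whose fold changes were near 0, held GGGCGG as well.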

How the data were processed

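Per the labels' protocols, libraries were made from 100 ng of RNA (RNeasy Micro kit) with the KAPA mRNA HyperPrep kit. Per the submitters' processing notes, Trimmomatic, Subread, DESeq2 and mm10 were used, with no version or role; the annotation and strand setting are not given in the sources used here. The authors deposited 1 table of their own comparison. Per the file headers it holds a mean normalized count (a signal averaged over libraries), a log2 fold change and its SE (log2), a test score (the Wald statistic) and unadjusted and adjusted p-values. Depth per library is unknown, and the number of libraries limits precision.

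A count test per gene was planned for counts per library; with the authors' table, their deposited p-values at a threshold of 0.05 were used instead. Intervals at 95% were computed from the deposited SE with SciPy 1.17.1. Transcript lengths and overlaps came from GENCODE M21 on GRCm38, the build named mm10. Named genes are all members and, in each of the other pathway lists, genes with an adjusted p-value under 0.05, the smallest p-value and the highest mean count; Calm2, Camta2, Gap43, Camk1, Camk1g, Camkv, Ppp3ca, Ppm1e, Ppm1f, Grin2b, Lrrc7, Rem2, Gria1, Creb1, Crebbp and the cell type markers were added after their values were seen. Members and lists were chosen with earlier results of these data known. The adjustment and the null of a 1.2-fold change were tested on simulated data. The planted changes there were larger than those of the members, so behaviour at the members' effect size was not tested. A planned comparison of the members' proteins was not made, and protein sequences were not used here. Motifs and the capital runs were chosen after the table was seen; an item of the calmodulin list is not reported here, and counts of that list leave it out.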

Additional observations from a re-analysis of the deposited data

How the results depend on the processing

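No paired analysis was possible because single libraries have no values in the table, and for the same reason leaving out a library was not run, so whether 1 library decides a value was not tested. The 67 genes called became 101 at a threshold of 0.1, 21 with Bonferroni and 2 against a null of a 1.2-fold change, and 60 and 68 with no filter or a minimum mean count of 100. Of the members, 2 were called (Camk2a and Camk2n1), 3 at a threshold of 0.1 (with Camk2n2), 1 with Bonferroni (Camk2a) and 0 against a null of a 1.2-fold change, where the adjusted p-values of Camk2a and Camk2n1 were both 1. By the unadjusted p-value, 4 members lay under 0.05, as did 8.1% of all genes with an adjusted p-value. At 0.01 there were 3 members, and the share over all genes was not computed. The members were chosen with these p-values known, so nothing is read from any of these counts of members, adjusted or unadjusted. The alternatives for the members' adjusted p-values, the merged exons and 1 of the centrings were chosen after seeing the data. The class medians kept their sign and stayed within 1 SE under 3 other summaries or centrings. Of 44 adjusted p-values of named genes, 42 kept their side of the threshold. The 2 that did not were those of Camk2a and Camk2n1 against the null of a 1.2-fold change. The other named genes counted here were above 0.05 from the start, and that stricter null could not bring them under it. The count is therefore no measure of stability. Of the levels per kilobase, those named next moved by more than 1.5-fold with the length used, by construction. With the median coding transcript they were 78199 for Camk2a, 10244 for Camk2b, 7111 for Camk2g, 6458 for Camkk2, 1156 for Camk4, 1072 for Camk1d and 1053 for Camkk1. With merged exons they were 14210 for Camk2a, 2160 for Camk2b, 913 for Camk2g, 641 for Camkk2 and 131 for Camk2d.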
